A study of Homo sapiens with 6 samples.

Results

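The expression of 10 genes that set the passage of a cell from G1 into S phase was followed in clones of 2 human ovarian cancer cell lines that were made to lower or raise the focal adhesion protein Hic-5. They are the D-type cyclins CCND1, CCND2 and CCND3, the kinases CDK4 and CDK6, the inhibitors CDKN2A, CDKN2B, CDKN1A and CDKN1B, and RB1. Members were the non-control probes, DNA oligonucleotides printed on the array, that carried 1 of these gene names in the scanner files. They came to 21 of 41000 probes, 10 of 29123 gene names, and 66 of 43376 probe spots on each array.

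D-type cyclins bind and activate CDK4 and CDK6, and the active kinases phosphorylate the retinoblastoma protein, the product of RB1, which then releases E2F transcription factors. The INK4 inhibitors, encoded by CDKN2A and CDKN2B, bind CDK4 and CDK6 directly, while the CIP/KIP inhibitors, encoded by CDKN1A and CDKN1B, act mainly on cyclin and kinase complexes. Loss of this control is common in carcinomas, ovarian carcinoma included.

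RNA was read on 6 two-colour Agilent Whole Human Genome arrays, each holding 2 RNAs, 1 in the dye Cy3 and 1 in Cy5. SKOV3 is an ovarian adenocarcinoma line. Its modified RNAs came from sh-S1 and sh-S2, single stable clones made with pLKO.1-puro lentivirus that carried an shRNA against Hic-5, and its Ctrl was a clone with the same vector and a scramble sequence. A2780s is another ovarian cancer line. Its modified RNA came from 1 stable clone, pCMV-Hic-5, which carried human Hic-5 in the pCMV6 vector under neomycin selection, and its Ctrl was a clone with the empty vector. Each modified RNA was hybridised against its Ctrl on 2 arrays with the dyes exchanged, so both arrays of a clone hold the same RNAs and are 1 replicate. SKOV3 thus had 2 replicates set against 1 Ctrl RNA and A2780s had 1. Cells grew as adherent cultures, SKOV3 clones were selected with puromycin, and no cytokine treatment is given for these RNAs. All values below are log2 ratios of modified clone to Ctrl unless a level is named.

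In SKOV3 the median signal above local background was 373 to 530.5 in Cy3 but 9.52 to 25.5 in Cy5, against 325 to 568 over both dyes in A2780s. Over probes bright enough to enter, the dye-swapped arrays of a clone correlated at r = 0.61 (sh-S1), 0.61 (sh-S2) and 0.49 (pCMV-Hic-5). The arrays of sh-S1 and sh-S2 in the same dye correlated at 0.89 (Cy5) and 0.90 (Cy3). The SDs between clone means given below leave out the spread between dye orientations. TGFB1I1, the gene for Hic-5, had log2 ratios of -0.16 and 0.12 in sh-S1 and -0.12 and 0.28 in sh-S2, with the clone in Cy5 named first. The mean was 0.03 (95% interval -0.20 to 0.26). TGFB1I1 was therefore not lower at this probe in either RNA labelled as an shRNA clone, and every SKOV3 direction below rests on the labels. The reading comes from 1 probe in 1 spot, whose Cy5 signal above local background was 8.44 in sh-S1 and 13.2 in sh-S2. The study states that the knockdown of its stable clones was checked by Western blot, quantitative RT-PCR and semi-quantitative PCR. In A2780s its log2 ratios were 4.05 and 2.60 in the RNA labelled pCMV-Hic-5. Markers fixed to check the cell type also moved. Of 5 epithelial markers 4 were bright enough to be tested, and all 4 (KRT7, KRT8, KRT18 and KRT19) fell in SKOV3, with a median log2 ratio of -2.37. PAX8, 1 of 3 tested markers of the ovarian and Müllerian lineage, fell by 3.58, while WT1 (-0.02) and MUC16 (0.06) were not called. ERBB2 fell by 2.28. COL3A1, 1 of 3 tested fibroblast markers, rose by 3.65, while COL1A1 (-0.14) and DCN (0.07) were not called. Of 2 tested leukocyte markers 0 were called in limma, 0 of them with an unadjusted p under 0.05, and no endothelial marker was bright enough to be tested. Of 7 proliferation markers 0 were called, with a median log2 ratio of -0.22. Limma's adjusted p alone was passed by 0 of them, and an unadjusted p of 0.05 by 3. In A2780s KRT18, at 0.59, was the only marker called. What part these shifts have in the results below was not tested.

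A probe was called in SKOV3 when limma, fitted to all 24956 probes that passed a filter on dim signal, put its adjusted p at or under 0.05 and its ratio reached 2-fold in either direction. Of the 21 member probes, 17 from 9 genes passed the filter. Of these, 7 probes of 4 genes (CCND2, CDKN2A, CDKN1A and CDKN1B) were called higher in the clones and 2 probes of 2 genes (CDK6 and RB1) were called lower, and 8 were not called. Over all probes tested, 2.98% were called higher and 4.16% lower, 7.14% together. With the adjusted p alone, 12 member probes passed, against 31.8% of all probes. The median size of the log2 ratio was 1.01 over the 17 member probes and 0.18 over all probes tested. No Ctrl RNA was hybridised against another Ctrl, so these p-values leave out the spread of the Ctrl. They rest on the 2 clones, with a variance that limma took in large part from the other probes.

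**Figure D1:**
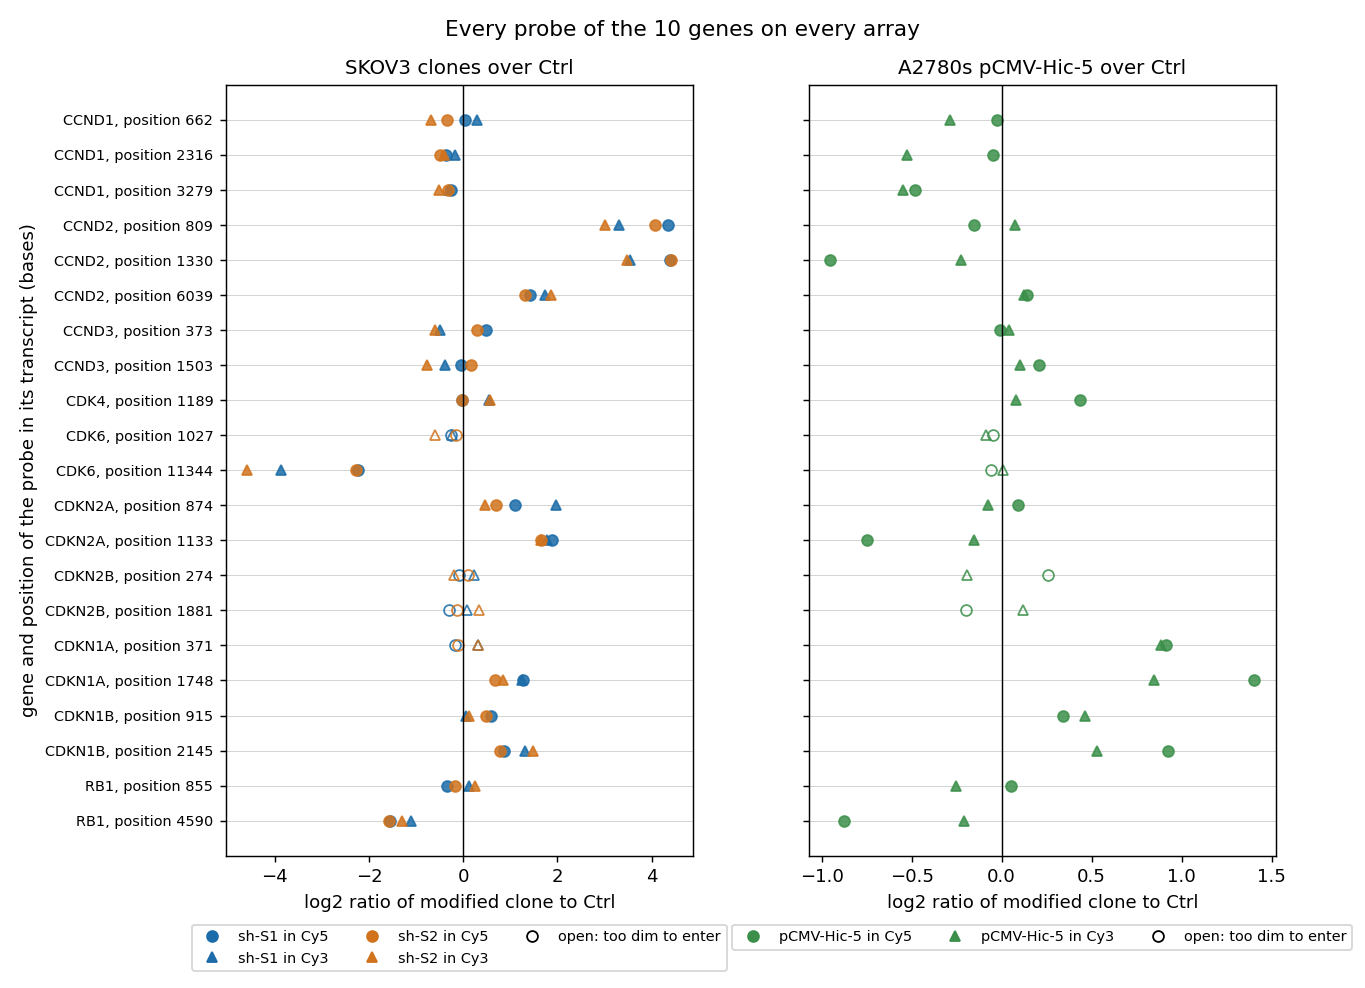
Log2 ratio of modified clone to Ctrl (horizontal axes, different scales) for the 21 probes of the 10 genes (rows, with the position of the probe in its transcript in bases). Each point is 1 array, circles have the clone in Cy5 and triangles in Cy3, and open points were too dim to enter. The 3 CCND2 probes lie between 1.32 and 4.42 in SKOV3, and CDK6 at position 11344 lies between -4.58 and -2.23.

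CCND2, a D-type cyclin, was higher in the RNAs labelled as shRNA clones at all 3 of its probes. The probes lie on 1 transcript, and their sequences are given because the size of the rise depended on the probe. Sequences are as printed on the array, 5′ to 3′, on the plus strand of chromosome 12 in build hg19. The 2 probes nearer the 3′ end are shown by their first 30 bases.
CCND2, position 809, chr12:4388019-4388078: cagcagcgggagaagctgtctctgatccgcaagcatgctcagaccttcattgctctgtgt
CCND2, position 1330, chr12:4409331-4409390: aaggtcctacgaaaacggaataataaaaag
CCND2, position 6039, chr12:4414040-4414099: atcgggccattggattttttccattatgtt

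The probe at position 809 had log2 ratios of 4.35 and 3.32 in sh-S1 (clone in Cy5, then in Cy3) and 4.08 and 3.00 in sh-S2. Its mean was 3.69 ± 0.21 (SD, n = 2 clones; limma adjusted p = 3.89e-06), a 12.9-fold rise. The probe at position 1330 gave 4.40, 3.55, 4.42 and 3.48 in the same order, with a mean of 3.96 ± 0.01 (SD, n = 2 clones; limma adjusted p = 2.49e-06), a 15.6-fold rise. That at position 6039 gave 1.43, 1.74, 1.32 and 1.86, with a mean of 1.59 (limma adjusted p = 5.04e-05), a 3.00-fold rise. All 4 arrays were high with each of the probes, but no array reading at position 6039 reached any reading at the other positions. The log2 ratio at position 6039 minus that at position 809 was -2.25 for clone sh-S1 and -1.96 for clone sh-S2. The channel levels, after normalization over the 6 arrays, were 9.79 ± 0.67 in the SKOV3 Ctrl at position 809 (SD, n = 4 arrays of 1 RNA), against 13.45 for sh-S1 and 13.49 for sh-S2. At position 6039 they were 11.30 ± 0.07 for the Ctrl, 12.90 for sh-S1 and 12.86 for sh-S2. The spread of the Ctrl at position 809 followed the dye, with lower readings in Cy3 than in Cy5.

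CCND1, the D-type cyclin most often amplified in carcinomas, was not called. Its probe at position 2316 gave log2 ratios of -0.37, -0.18, -0.48 and -0.40 in the order used above, a mean of -0.36 ± 0.12 (SD, n = 2 clones; limma adjusted p = 0.0323). Its probe at position 3279 gave -0.26, -0.29, -0.31 and -0.51, a mean of -0.34 ± 0.10 (limma adjusted p = 0.0358). Both were below 0 on all 4 arrays and both passed the adjusted p, but the change was 1.27- to 1.28-fold and so did not reach the threshold. The third probe, at position 662, gave 0.05 and 0.29 in sh-S1 and -0.35 and -0.68 in sh-S2, so the clones lay on opposite sides of 0 and the mean of -0.18 did not pass (limma adjusted p = 0.489).

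CCND3 gave no call with either of its probes. At position 1503 its log2 ratios were -0.05 and -0.38 in sh-S1 and 0.16 and -0.76 in sh-S2, and at position 373 they were 0.49 and -0.49 in sh-S1 and 0.30 and -0.60 in sh-S2. The sign at position 373 followed the dye in both clones. The means were -0.26 (95% interval -0.48 to -0.03, limma adjusted p = 0.0837) and -0.08 (95% interval -0.31 to 0.16, limma adjusted p = 0.625).

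Of the kinases, CDK4 was measured by 1 probe and was not called. It gave -0.03 and 0.55 in sh-S1 and -0.03 and 0.58 in sh-S2, again a split by dye, with a mean of 0.27 (95% interval 0.05 to 0.49, limma adjusted p = 0.0714). CDK4 was well above background on every array, with a level of 12.61 ± 0.15 in the SKOV3 Ctrl (SD, n = 4 arrays).

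CDK6 was called lower at 1 of its 2 probes, and the other was too dim to test in SKOV3. The probes are shown because they read far apart stretches of 1 transcript on the minus strand of chromosome 7. The probe at position 1027 spans 48399 bases of genome, as a probe across exons does. It is given in full, and the probe at position 11344 by its first 30 bases.
CDK6, position 1027, chr7:92252373-92300771: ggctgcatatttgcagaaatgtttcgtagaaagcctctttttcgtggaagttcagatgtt
CDK6, position 11344, chr7:92234443-92234502: ttggtgttgaaatatcactgtccaatgtgt

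At position 11344 the log2 ratios were -2.23 and -3.86 in sh-S1 and -2.28 and -4.58 in sh-S2. The mean of -3.24 ± 0.27 (SD, n = 2 clones; limma adjusted p = 8.03e-06) averages over readings at the background, so its size is not exact. It was -2.25 over the arrays with the clone in Cy5 and -4.22 over those with the clone in Cy3. The probe entered through the Ctrl, in which it was high. The Ctrl was well above background on 4 of 4 arrays and the clones on 2 of 4, those with the clone in Cy3, and the smaller ratios came from the arrays on which the clone was in Cy5 and not well above background. The level was 11.36 ± 0.43 in the Ctrl (SD, n = 4 arrays), and on the array that measured it well above background it was 6.87 in sh-S1 and 6.91 in sh-S2. At position 1027 the Ctrl was well above background on 3 of 4 arrays and the clones on 2 of 4. The log2 ratios there were -0.26 and -0.25 in sh-S1 and -0.14 and -0.60 in sh-S2, all below 0, with no test.

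**Figure D2:**
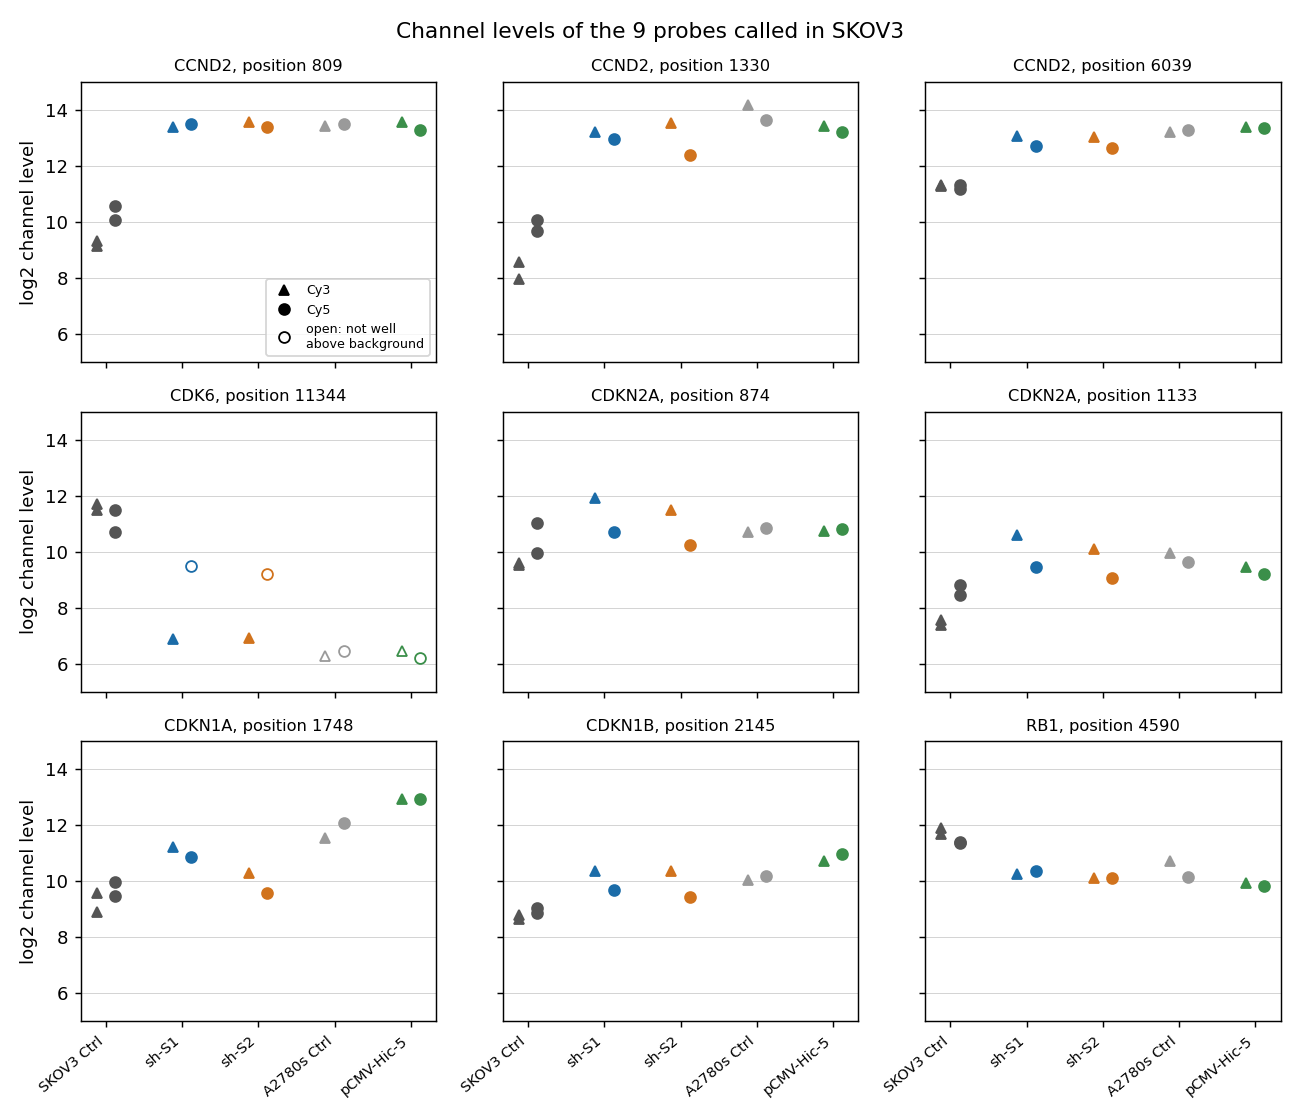
Log2 channel level (vertical axis, normalized over the 6 arrays) of the 9 probes called in SKOV3, in each of the 5 RNAs. Each point is 1 channel of 1 array, triangles are Cy3 and circles Cy5, and open points were not well above background. CDK6 is open in every A2780s channel, and CCND2 at position 809 lies above 13 in all RNAs but the SKOV3 Ctrl.

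The INK4 gene CDKN2A rose at both of its probes, on the minus strand of chromosome 9 (hg19, chr9:21968039-21968098 and chr9:21967780-21967839). The gene encodes an INK4 inhibitor and an ARF protein from transcripts that share exons, and the files do not tell which of them a probe reads. The probe at position 1133, printed in 10 spots on every array, had log2 ratios of 1.88 and 1.77 in sh-S1 and 1.65 and 1.66 in sh-S2, with a mean of 1.74 ± 0.12 (SD, n = 2 clones; limma adjusted p = 4.46e-05), a 3.34-fold rise. At position 874 the readings were 1.11 and 1.98 in sh-S1 but 0.69 and 0.47 in sh-S2, a mean of 1.06 ± 0.68 (SD, n = 2 clones; limma adjusted p = 0.00892). All 8 readings were above 0. At position 874 the clones differed, with a mean of 1.54 for sh-S1 and 0.58 for sh-S2, and the value of sh-S2 alone was under 2-fold. At position 1133 the Cy5 signal of the Ctrl above local background was 14.7 and 18.0, under the offset of 50 added in processing. With the signals as processed by the scanner software the log2 ratio there was 3.45, so the size of this rise is not exact.

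CDKN2B, the neighbouring INK4 gene, could not be tested. Both probes exceeded the background limit on 2 of 4 arrays in the SKOV3 Ctrl, and in the clones on 0 of 4 (position 274) and 1 of 4 (position 1881). Their levels lay between 6.27 and 6.42 in the 3 SKOV3 RNAs, and no fold is given.

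The CIP/KIP gene CDKN1A, which encodes CIP1, rose at 1 probe, and its other probe was too dim in SKOV3 to be tested. The probes lie on the plus strand of chromosome 6 and were designed on different transcripts of the gene, so their positions are not on 1 scale. The first is given in full and the second by its first 30 bases.
CDKN1A, position 371, chr6:36652178-36652237: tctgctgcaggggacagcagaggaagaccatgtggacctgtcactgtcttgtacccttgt
CDKN1A, position 1748, chr6:36654706-36654765: catccctccccagttcattgcactttgatt

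The probe at position 1748, printed in 10 spots, had log2 ratios of 1.28 and 1.24 in sh-S1 and 0.68 and 0.84 in sh-S2. Its mean was 1.01 ± 0.35 (SD, n = 2 clones; limma adjusted p = 0.00173), a 2.01-fold rise. The arrays of sh-S1 were all above those of sh-S2, and sh-S2 alone, at 0.76, was under 2-fold. The probe at position 371 gave -0.17 and 0.32 in sh-S1 and -0.11 and 0.31 in sh-S2, split by dye, and both the Ctrl and the clones exceeded the background limit on only 2 of 4 arrays.

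CDKN1B, which encodes KIP1, was read by 2 probes on the plus strand of chromosome 12 (hg19, chr12:12871119-12871178 and chr12:12874940-12874999). The probe at position 2145, printed in 10 spots, gave log2 ratios of 0.88 and 1.32 in sh-S1 and 0.79 and 1.49 in sh-S2, a mean of 1.12 ± 0.03 (SD, n = 2 clones; limma adjusted p = 0.000226), a 2.17-fold rise. Position 915 gave 0.59, 0.06, 0.48 and 0.13, a mean of 0.31 ± 0.01 (limma adjusted p = 0.0422), a 1.24-fold change that passed the adjusted p and not the fold. All 8 readings were above 0. With the clone in Cy3 the 2 probes were far apart, and with the clone in Cy5 they lay closer together.

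RB1 fell at its probe near the 3′ end and was not called at its upstream probe. Both exceeded the background limit in the Ctrl on 4 of 4 arrays, and in the clones on 4 of 4 (position 4590) and 3 of 4 (position 855). They lie on the plus strand of chromosome 13, and the upstream probe spans 2747 bases of genome. The upstream probe is given in full and the other by its first 30 bases.
RB1, position 855, chr13:48934235-48936981: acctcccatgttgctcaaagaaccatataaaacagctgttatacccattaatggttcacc
RB1, position 4590, chr13:49055845-49055904: gtgccagaattttaggaacttcagagatcg

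At position 4590, printed in 10 spots, the log2 ratios were -1.56 and -1.10 in sh-S1 and -1.57 and -1.30 in sh-S2. The mean was -1.38 ± 0.08 (SD, n = 2 clones; limma adjusted p = 1.00e-04), a 2.61-fold fall. At position 855 the log2 ratios were -0.34 and 0.12 in sh-S1 and -0.18 and 0.25 in sh-S2, a mean of -0.04 (95% interval -0.27 to 0.20, limma adjusted p = 0.832). No reading at position 4590 reached any reading at position 855. On every array the probe at position 4590 was below the other, by a log2 difference between -1.55 and -1.22.

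**Figure D3:**
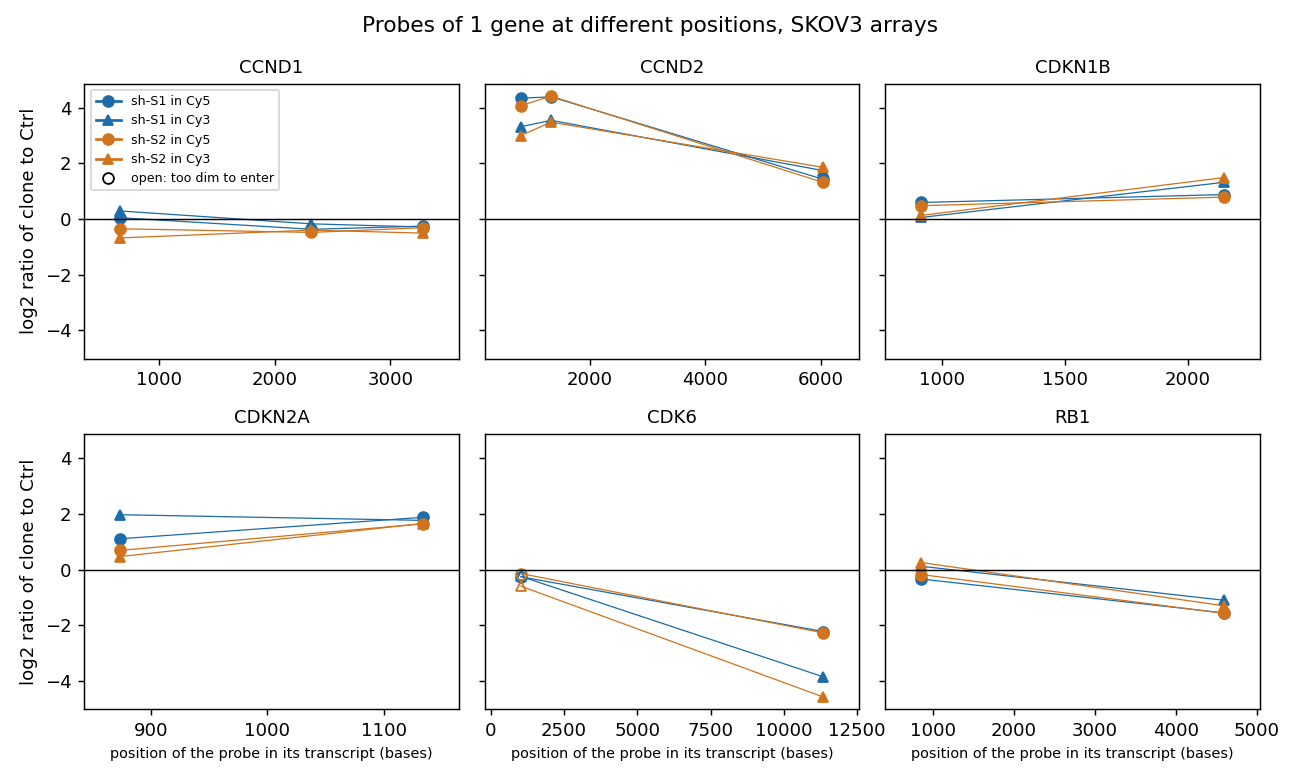
Log2 ratio of clone to Ctrl (vertical axis) against the position of the probe in its transcript in bases (horizontal axis, a scale for each gene) on the 4 SKOV3 arrays, for the 6 genes of which at least 1 probe passed the adjusted p and whose probes share 1 transcript scale. Lines join the probes of 1 array, and open points were too dim to enter. From the first to the last position the mean ratio differed by -2.10 in CCND2, -1.35 in RB1 and 0.80 in CDKN1B, and no size is read for CDK6, whose first probe was too dim.

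The ratios of the first and the last probe of a gene thus differed in the same direction on all 4 arrays in CCND2, CDKN1B and RB1, and the direction was not the same in all of them. At the last position the ratio was less positive in CCND2, more negative in RB1 and more positive in CDKN1B. The difference ran from -0.20 to 1.19 over the arrays in CDKN2A and from -0.58 to 0.17 in CCND1. The share of G and C bases was lower in the last probe than in the first in CCND2 (55% at position 809 and 38.3% at position 6039), CCND1 (55% and 43.3%), CDKN1B (55% and 35%) and RB1 (40% and 35%), and higher in CDKN2A (40% and 45%). The middle CCND2 probe, at position 1330, had the lowest share of its gene, 35%, and the highest mean ratio, 3.96. The middle CCND1 probe, at position 2316, had 35% and a mean ratio of -0.36. The probe differences come from the main processing, with its offset of 50. The Cy5 signal of the first probe above local background was 20.4 to 23.3 in CDKN1B and 4.55 to 29.6 in RB1. In CCND2 it was 80.8 to 966. With the signals as processed by the scanner software, the first and last probes were at 1.31 and 1.82 in CDKN1B, both called. They were at -0.35 and -1.63 in RB1 and at 4.28 and 1.68 in CCND2. What part base composition or dim signal has in the probe differences was not tested. Averaging all tested probes of a gene left 3 genes called higher (CCND2 at 3.08, CDKN2A at 1.40 and CDKN1A at 1.01) and 1 lower (CDK6 at -3.24). CDKN1A and CDK6 had only 1 tested probe each, so averaging could not change their calls. CDKN1B at 0.72 and RB1 at -0.71 then passed the adjusted p and not the fold.

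Repeated spots gave a measure of the spread within an array. Repeats were available for 5 probes (of CCND1, CDKN1A, CDKN1B, CDKN2A and RB1), each printed in 10 spots, of which 7 to 10 could be used on an array. The SD among the spots of 1 probe on 1 array ran from 0.04 to 0.47 on the log2 scale. The widest was CDKN2A with sh-S1 in Cy5, where the spots ran from 1.44 to 2.82. For RB1 the highest of all SKOV3 spots was -0.71. Readings could also shift with the number of a spot, which follows its place on the array. With sh-S1 in Cy5, CCND1 read -0.39 at spot 1605 and 0.22 at spot 42741. With sh-S1 in Cy3 the same spots read 0.00 and -0.59. Probes printed in 1 spot do not show such a shift, and its part in their ratios was not tested. Spots share the RNA, the dye and the array, so they are no replicates of a clone.

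**Figure D4:**
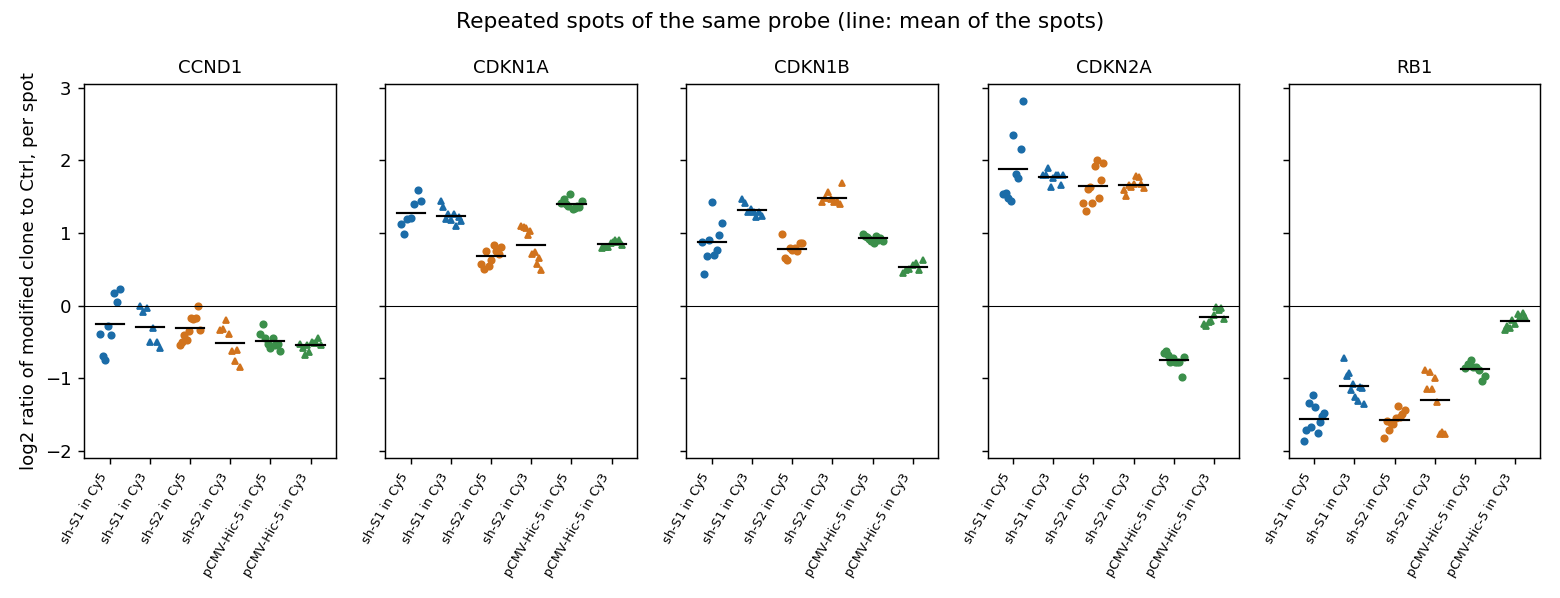
Log2 ratio of modified clone to Ctrl (vertical axis) of each usable spot of the 5 probes printed in 10 spots, on each of the 6 arrays (horizontal axis). Points are spots and the line is their mean on that array. The SKOV3 spots of CDKN1A, CDKN1B and CDKN2A all lie above 0 and those of RB1 all below 0, while CCND1 spots lie between -0.85 and 0.22.

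In A2780s a single replicate leaves no test, and the call was by size: a mean ratio of at least 1.5-fold that both arrays gave in the same direction. Of the 21 probes, 17 of 8 genes passed the filter. Of these, 3 probes of 2 genes (CDKN1A and CDKN1B) were called higher in the pCMV-Hic-5 clone and 1 probe of CCND2 was called lower, where 3.26% of all 30530 probes were called higher and 1.32% lower, 4.58% together. The median size of the log2 ratio was 0.28 over the 17 member probes and 0.14 over all probes.

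CDKN1A was higher with both of its probes. Position 1748 gave log2 ratios of 1.40 (clone in Cy5) and 0.85 (clone in Cy3), 2.18-fold on average, and position 371 gave 0.92 and 0.89, 1.87-fold on average. CDKN1B at position 2145 gave 0.93 and 0.53, a mean of 0.73 whose second reading alone was under 1.5-fold, and at position 915 it gave 0.34 and 0.46, a mean of 0.40 that was under 1.5-fold. All 8 readings of CDKN1A and CDKN1B were above 0. CCND2 at position 1330 gave -0.95 and -0.22, a mean of -0.59 or 1.503-fold that only just reached the threshold, while its other probes gave -0.15 and 0.08 (position 809) and 0.14 and 0.12 (position 6039). The call of CCND2 in A2780s thus rests on 1 of its 3 probes and mainly on its Cy5 reading.

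The remaining members gave no call in A2780s. RB1 at position 4590 gave -0.87 and -0.21 and at position 855 gave 0.05 and -0.25. CDKN2A at position 1133 gave -0.75 and -0.15 and at position 874 gave 0.09 and -0.08. CCND1 was below 0 on both arrays with all 3 probes, with means of -0.16, -0.28 and -0.51, and CDK4 gave 0.44 and 0.08. CDK6 at position 11344 was not well above background in either A2780s RNA on any array, so no fold is given. CCND3 gave 0.21 and 0.10 at position 1503 and -0.01 and 0.04 at position 373. The probe of CDK6 at position 1027 and both of CDKN2B exceeded the background limit in the A2780s Ctrl on 1 of 2 arrays and did not enter.

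The Ctrl RNAs of the lines can be set side by side only as levels, since each line lay on a slide and scan of its own, so that the line and the slide cannot be told apart. CCND2 at position 809 had a level of 13.47 in the A2780s Ctrl against 9.79 in the SKOV3 Ctrl, and 13.45 and 13.49 in sh-S1 and sh-S2. CDK6 at position 11344 had a level of 6.37, not well above background, in the A2780s Ctrl against 11.36 in the SKOV3 Ctrl. CDKN1B at position 2145 had a level of 10.13 in the A2780s Ctrl, 8.84 in the SKOV3 Ctrl, 10.02 in sh-S1 and 9.90 in sh-S2. RB1 had a level of 10.44 at position 4590 in the A2780s Ctrl, 11.60 in the SKOV3 Ctrl, 10.32 in sh-S1 and 10.12 in sh-S2, and at position 855 the levels of the same RNAs were 8.57, 8.52, 8.32 and 8.65. Among the inhibitors, CDKN1A at position 1748 had a level of 11.82 in the A2780s Ctrl and 12.95 in the pCMV-Hic-5 clone, against 9.49 in the SKOV3 Ctrl, 11.05 for sh-S1 and 9.96 for sh-S2. CDKN2A at position 1133 had a level of 9.80 in the A2780s Ctrl, 8.07 in the SKOV3 Ctrl, 10.03 for sh-S1 and 9.58 for sh-S2. The uncalled CDK4 lay at 12.73 in the A2780s Ctrl and 12.61 in the SKOV3 Ctrl, and CCND1 at position 3279 lay at 9.60 and 10.32. The levels of the clones and of the A2780s Ctrl are set against the same SKOV3 Ctrl. That Ctrl level is a mean over 4 arrays and each clone level over its own 2, so differences of levels are not the ratios given above. For CDKN1A at position 1748 the Ctrl was at 9.58 and 10.00 on the sh-S1 arrays and at 8.92 and 9.47 on the sh-S2 arrays. TGFB1I1 had a level of 8.22 in the SKOV3 Ctrl, 8.45 in sh-S1, 8.06 in sh-S2 and 12.79 in the A2780s Ctrl. The last is the mean of 11.85 in Cy3 and 13.73 in Cy5 (SD 1.33, n = 2 arrays of 1 RNA). For protein, the study reports rather low Hic-5 in A2780s and strong Hic-5 in SKOV3.

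Other genes of the G1 to S step were counted from a list of 39, each by its brightest probe. In SKOV3 38 were tested, of which 1 was called higher and 3 lower, with a median log2 ratio of -0.08, where 2.98% of all probes were called higher and 4.16% lower. With the adjusted p alone 16 passed, 8 in each direction, against 31.8% of all probes. MNAT1, which assembles the CDK-activating kinase, rose by 1.58 ± 0.22 (SD, n = 2 clones; limma adjusted p = 0.000111). E2F1, which the retinoblastoma protein binds, fell by 1.06 ± 0.02 (limma adjusted p = 0.000283), and E2F7, an E2F repressor, fell by 1.28 ± 0.41 (limma adjusted p = 0.000936). CCNDBP1, a cyclin D binding protein, fell by 1.13 ± 0.31 (limma adjusted p = 0.000843). In sh-S1 alone E2F7 was at -0.98, and in sh-S2 alone CCNDBP1 was at -0.90, each under 2-fold.

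In A2780s 38 of the 39 genes passed the filter, with a median log2 ratio of -0.08, and 3 were called higher and 1 lower, where 3.26% of all probes were called higher and 1.32% lower. CDKN1C, the remaining CIP/KIP inhibitor, gave 1.31 and 1.101 in the same order, 1.21 on average. SERTAD1, a CDK4 regulator, gave 0.40 and 0.98, and E2F5 gave 0.68 and 0.51. E2F8 was lower, at -0.83 and -0.41. For each of SERTAD1, E2F5 and E2F8, 1 of these readings alone was under 1.5-fold. The E2F5 mean of 0.59 only just reached the threshold. CDKN1C was thus higher on both A2780s arrays, as CDKN1A and CDKN1B were, while in SKOV3 its mean was -0.11 and it was not called (limma adjusted p = 0.523). The difference between the lines was not tested.

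**Figure D5:**
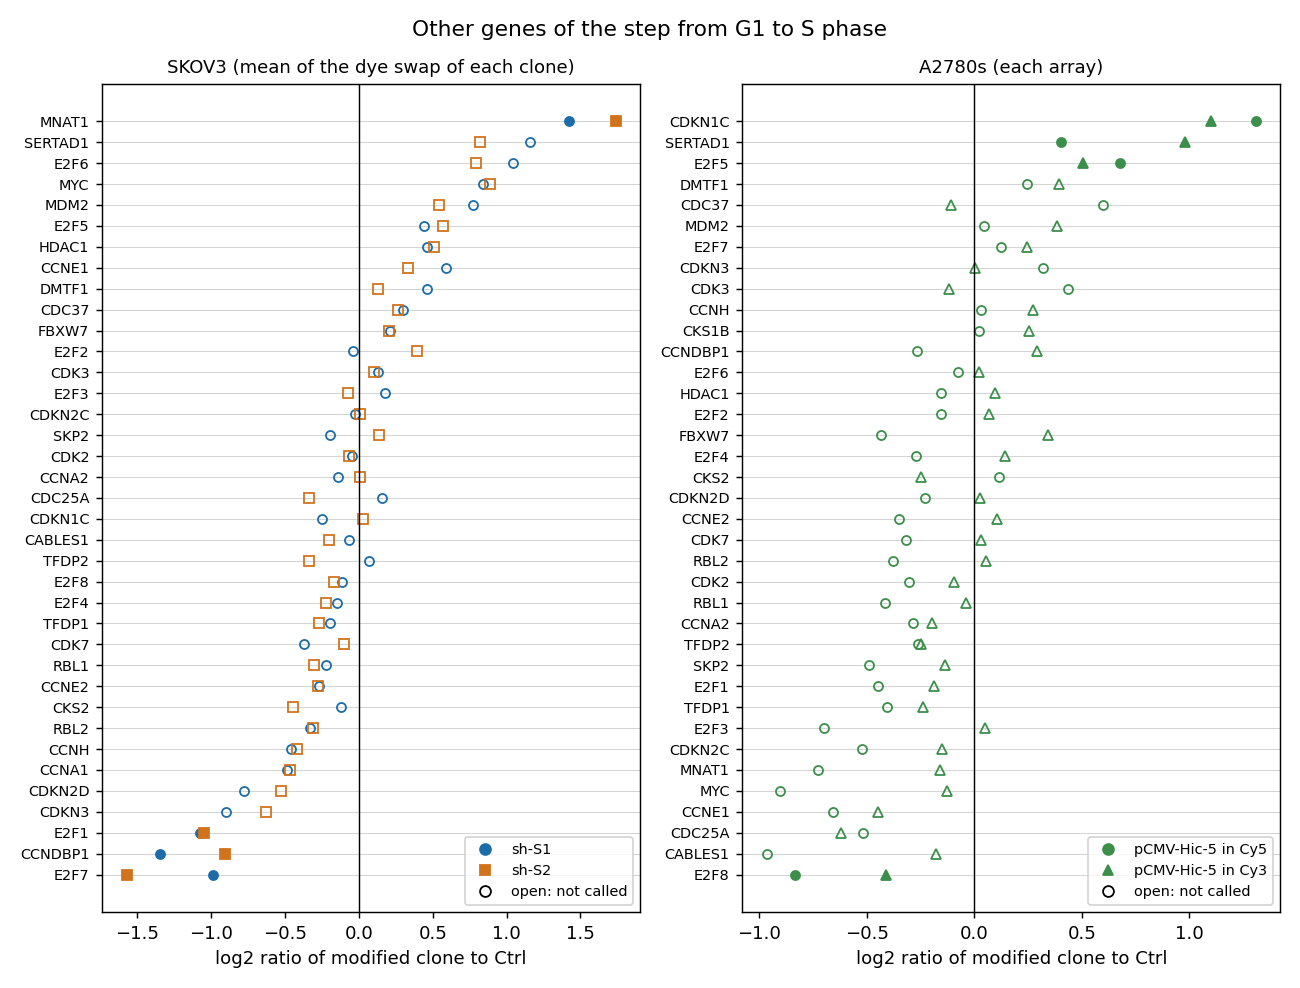
Log2 ratio of modified clone to Ctrl (horizontal axes, different scales) for the other G1 to S genes (rows, ordered by their mean), in SKOV3 as the mean of the dye swap of each clone and in A2780s on each array. Filled points are called genes. MNAT1 stands at the top in SKOV3 and E2F7 at the bottom, and CDKN1C stands at the top in A2780s.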

How the data were processed

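The authors deposited the intensity of each spot in Cy3 and Cy5 with its local background, as Agilent Feature Extraction wrote them, without normalization (version 8.5.1.1 per the submitters' processing notes and 10.7.3.1 per the file headers). The deposited log10 ratios (Cy5 to Cy3) come from signals that the software had background-corrected and dye-normalized. The deposited series table holds these log10 ratios within 0.5%, with the sign as scanned on every array. For the values given here, the mean intensity of each spot was background-corrected by limma 3.58.1 in R 4.3.3 (normexp, offset 50, spots with a local background over 1000 left out, background outliers left out of the fit), followed by loess normalization within arrays. Every log2 ratio was given the sign of modified clone against Ctrl. Control spots and outlier spots were left out and the spots of a probe were averaged. Levels per channel were normalized over the 6 arrays by Aquantile.

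In SKOV3 the dye-swapped arrays of each clone were averaged and limma's lmFit and eBayes tested whether the mean of the 2 clones differs from 0, with Benjamini-Hochberg adjustment over all 24956 probes. A probe entered when it was well above background, a flag of the scanner software, either on every array of the line in the Ctrl channel or on both arrays of a clone in the clone's channel, and for a probe with several spots in at least 50% of them. A2780s was described by fold alone. The study gives thresholds on p and fold and names no test. Nothing says that the RNAs came from separate cultures, so the p-values rest on 2 clone RNAs, and their precision is limited by the number of arrays. Limma drew the variance of each probe toward that of all tested probes, with 5.59 prior degrees of freedom. The p-values thus depend only in small part on a probe's own spread between the 2 clones. The 4 SKOV3 arrays shared 1 slide and scan and the A2780s arrays another. The script was tested on simulated data.

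The text names all probes of the 10 genes, TGFB1I1, the called genes among the other G1 to S genes and the cell type markers. Of the other G1 to S genes, 1 enters the counts and is left out of their plot. The members and lists were chosen with earlier results of these data known, so their counts are no independent evidence. Probe coordinates are those of the files, in hg19, and were not converted. No protein sequences were used here. Alternatives were another background fit, the processed signals, median centring, no filter on dim probes, each dye orientation alone, each clone alone, a mean over the probes of a gene, and 1.5-fold on each A2780s array. Figures were drawn with matplotlib 3.10.9.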

Additional observations from a re-analysis of the deposited data

How the results depend on the processing

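All 8 alternatives run for single probes kept the SKOV3 calls of CCND2 (all 3 probes), CDKN2A (position 1133) and RB1 (position 4590). The sign was the same in each. The call of CDK6 at position 11344 was kept too, but the probe entered through the Ctrl, where it was high. Its repeated call is thus no added support. The clones were well above background there on 2 of 4 arrays, and its log2 ratio ran from -5.25 to -2.25. With the processed signals of Feature Extraction the log2 ratio of CDK6 became -5.25, of CDKN2A 3.45, and of CCND2 4.77 at position 1330 and 4.28 at position 809. The numbers of SKOV3 member probes called, 7 higher and 2 lower, became 4 higher with the clone in Cy5 alone, and 3 genes higher and 1 lower with the mean over the probes of a gene. Of these genes, CDKN1A and CDK6 had only 1 tested probe each, which the mean could not change. With each clone alone, by fold, 5 to 7 were higher and 2 to 2 lower. In A2780s, CDKN1B at position 2145 lost its call with the clone in Cy3 alone (0.53) and with 1.5-fold on each array, which left 2 higher. There 3 higher and 1 lower became 1 higher and 0 lower with the mean over probes, 3 lower with the clone in Cy5 alone, and 0 lower with the clone in Cy3 alone, with median centring or with 1.5-fold on each array. The SKOV3 G1 to S genes, 1 higher and 3 lower, became 5 and 6 with the processed signals of Feature Extraction, 2 higher with the clone in Cy5 alone and 3 higher with the clone in Cy3 alone, and with each clone alone 1 to 3 were higher and 2 to 2 lower. The A2780s G1 to S genes, 3 higher and 1 lower, became 0 lower with normexp fitted on all spots, 3 lower with the processed signals, 6 lower with the clone in Cy5 alone, and 1 higher and 0 lower with 1.5-fold on each array. The sign turned in SKOV3, none of them called, for CCND3 at position 373 with the processed signals (0.0362) and with the clone in Cy5 alone (0.39), for CDK4 (-0.0308) and CCND3 at position 1503 (0.0571) with the clone in Cy5 alone, and for RB1 at position 855 with the clone in Cy3 alone (0.19) or without sh-S1 (0.0379), and for CCND1 at position 662 without sh-S2 (0.17).

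CDKN1A at position 1748 was under 2-fold with median centring (0.97) and with the clone in Cy5 alone (0.98), as were CDKN2A at position 874 (0.90) and CDKN1B at position 2145 (0.83) with the clone in Cy5 alone. With the processed signals CDKN1B reached 1.31 at position 915 and 1.82 at position 2145, and CDKN1A 1.47 at position 1748. The sizes of the SKOV3 ratios thus depend on the processing. Over all probes, called counts of 743 higher and 1038 lower in SKOV3 became 1964 and 2355 with the processed signals, and 994 higher and 403 lower in A2780s became 1795 and 1516 with the clone in Cy5 alone. The cause was not tested in any of these cases. The dim Cy5 channel of the SKOV3 arrays limits what can be read there. No paired analysis was possible because the arrays of a clone hold 1 pair of RNAs and each ratio already sets a clone against its Ctrl, and no block for the slide could be fitted because each line lay on 1 slide.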
